A study of Mus musculus with 8 samples.

Results

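The microRNAs described here are the guide strands of miR-146a, miR-146b and miR-155 (mmu-miR-146a-5p, mmu-miR-146b-5p and mmu-miR-155-5p), the miRNAs most often linked to NF-kB signalling. They were chosen by name, and make up 3 of the 1978 mature mouse miRNA names in the deposited count table. Each stood in 1 row of the table, and all 3 passed the filter on low counts that left 382 miRNAs for testing. The table covers 8 small RNA libraries from sorted CD8+ T cells of mouse spleen. The 4 groups of 2 libraries were mCre MP, mCre TN, WT MP and WT TN, where mCre and WT name the genotype and MP and TN the sorted subset. The design text writes VM in place of MP and Cre- for the mice set against WT, and the series title ties the experiment to miR-29 and Cre. The sources used here give neither the alleles of the mCre mice nor the cells in which Cre acts. They give no age per sample either, since 1 protocol describes both adult and neonatal spleens. All groups were enriched for CD8 on magnetic beads and sorted on CD8, CD4, CD44, CD122 and viability, and 10000 sorted cells were lysed per sample. Whether the 2 libraries of a group stem from separate mice is not stated, so the spread behind each p-value is that between libraries and may be technical.

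NF-kB is a transcription factor that T cells activate downstream of the antigen receptor, costimulation and inflammatory cytokine receptors. It drives transcription of the genes for miR-146a and miR-155. miR-146a represses Traf6 and Irak1, proteins that carry the signal to NF-kB, and so closes a negative feedback loop. miR-155 represses the cytokine signalling inhibitor Socs1 and the lipid phosphatase SHIP1, and is known for its need in effector CD8+ T cell responses. In mouse T cells, miR-146a is known as low in naive cells and higher in cells that have been activated or are of memory type. miR-146b has the same seed as miR-146a but is made from another gene. NF-kB activity itself was not measured in these libraries.

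The mature sequences show why miR-146a and miR-146b are treated as one family and miR-155 is not. They are given below 5′ to 3′ from RefSeq (GRCm38.p6), with the seed, bases 2 to 8, in capitals.
mmu-miR-146a-5p: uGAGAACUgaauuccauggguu
mmu-miR-146b-5p: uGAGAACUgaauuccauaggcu
mmu-miR-155-5p: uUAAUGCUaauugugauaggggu
Of the 22 bases of miR-146a-5p, 20 are the same in miR-146b-5p. The differences, counted from 1 at the 5′ end with the base of miR-146a-5p first, are G18A and U21C, both outside the seed. Among 1679 mature mouse names in the RefSeq table, the seed GAGAACU was held by miR-146a-5p and miR-146b-5p and by no other name, and the seed UAAUGCU by miR-155-5p alone. A read trimmed short of position 18 could not be assigned to miR-146a-5p or miR-146b-5p, and the sources used here do not say how the authors' counting handled such reads.

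The hairpins show where each guide strand lies, and are printed because the 3 genes sit on 3 chromosomes and their opposite arms were almost uncounted. Both mature arms are in capitals, the 5p arm first, and coordinates are of GRCm38.p6, the mm10 assembly, with gene models of GENCODE vM21.
Mir146, chr11:43374397-43374461, minus strand: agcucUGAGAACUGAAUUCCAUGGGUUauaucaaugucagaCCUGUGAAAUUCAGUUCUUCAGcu
Mir146b, chr19:46342762-46342870, plus strand: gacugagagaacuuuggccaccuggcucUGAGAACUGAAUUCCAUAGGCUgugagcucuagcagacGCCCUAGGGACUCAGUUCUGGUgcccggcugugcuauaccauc
Mir155, chr16:84714140-84714204, plus strand: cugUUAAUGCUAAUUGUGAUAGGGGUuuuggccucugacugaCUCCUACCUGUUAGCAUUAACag
Mir146, the gene of miR-146a, lay in no other annotated gene, and its nearest protein-coding neighbour was Pttg1, 45788 bp away. Mir146b lay inside an intron of Mfsd13a on the same strand, 30376 bp from Nfkb2, which encodes the NF-kB subunit p100. Mir155 lay inside an exon of Mir155hg, the long non-coding RNA that is its primary transcript.

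Library totals ran from 1936600 to 5230975 counts, a 2.7-fold range. Levels are given as CPM, counts scaled to a common library size with TMM factors, and changes were tested with the quasi-likelihood F test of edgeR with Benjamini-Hochberg adjustment over all 382 miRNAs, at an adjusted p under 0.05. Beside the labelled cell type, 4 miRNAs listed for lymphocytes were read (miR-150-5p, both arms of miR-142a, miR-342-3p), all of which had counts in every library. Their presence alone does not tell CD8+ T cells from other blood cells. Their summed level was 40197 to 105273 unscaled CPM in MP and 44313 to 164992 in TN libraries. Before any genotype comparison, the miR-29 family was read in every library, since the title ties mCre to miR-29. Its share of counts was 0.0787% and 0.133% in mCre MP against 0.369% and 1.14% in WT MP libraries. In TN, the replicate 1 libraries had 0.170% in mCre against 0.355% in WT, but the replicate 2 libraries had 1.59% in the library labelled mCre TN against 0.0774% in the library labelled WT TN. The TN replicate 2 libraries thus run against their genotype labels, and the fold changes of the members that rest on them are also given without them. That leaves 1 TN library in each genotype, so the spread of a comparison within a genotype then comes from the MP libraries alone. From edgeR fits without both, only the size of the change is given for the members.

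miR-146a-5p, the feedback repressor of Traf6 and Irak1, was the member that rose in MP cells in the fit over both genotypes. Its level was 14742 and 13985 CPM in mCre MP, against 2017 and 3686 CPM in mCre TN libraries. In WT mice it was 11758 and 17137 CPM in MP, against 1793 and 2126 CPM in TN libraries. All 4 MP libraries lay above all 4 TN libraries, without overlap in either genotype. Among the 382 tested miRNAs, 6.81% had every MP library above every TN library over both genotypes. The raw counts behind these levels were large, from 27835 to 62878 in MP and from 3775 to 12144 in TN libraries. As a share of all miRNA counts, miR-146a-5p took 1.17% to 1.60% of MP libraries and 0.195% to 0.364% of TN libraries. It ranked 12th to 14th by count in MP libraries, and 25th to 44th in TN libraries.

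**Figure D1:**
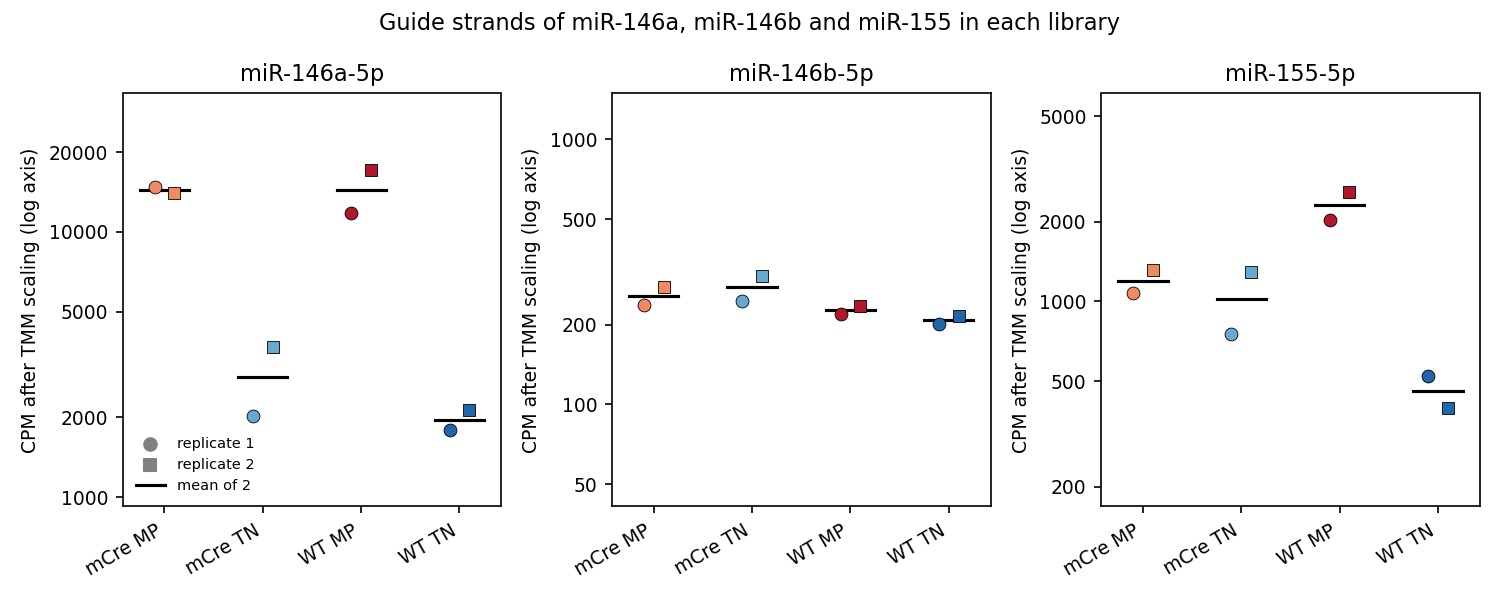
Level of each guide strand in each of the 8 libraries, in CPM after TMM scaling on a log axis that spans the same fold range in every panel; circles are replicate 1, squares replicate 2, and bars the mean of 2 libraries. miR-146a-5p sits between 11758 and 17137 CPM in the MP libraries and between 1793 and 3686 CPM in the TN libraries, miR-146b-5p stays between 201 and 306 CPM, and miR-155-5p is highest in WT MP and lowest in WT TN libraries.

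Over both genotypes, miR-146a-5p averaged 14405 ± 2218 CPM in MP and 2406 ± 865 CPM in TN libraries (SD, n = 4 each). The fitted log2 fold change was 2.61 ± 0.37 (SE), with a 95% interval of 1.76 to 3.45, or 6.09-fold, and an edgeR adjusted p of 0.0137. This was the fourth highest fold change of the 382 miRNAs. In this comparison 9 miRNAs (2.36%) passed the threshold, 5 of them higher in MP (1.31%) and 4 lower. The split was 4 higher and 6 lower with RLE size factors and 4 higher and 5 lower with total count scaling. By the DESeq2 test, 28 of the 352 miRNAs given an adjusted p (7.95%) passed, and miR-146a-5p had an adjusted p of 2.03e-08. Without both TN replicate 2 libraries, which leaves 1 TN library in each genotype, the edgeR log2 fold change was 2.78. Leaving out 1 library at a time kept the log2 fold change between 2.38 and 2.69, but the edgeR adjusted p missed the threshold without either WT MP library, without WT TN replicate 1, without mCre MP replicate 2 or without mCre TN replicate 1 (0.0657 to 0.112). In sorted cells, a larger share of cells with miR-146a and more miR-146a per cell cannot be told apart.

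Within each genotype the change of miR-146a-5p had the same direction, with a wider error. In mCre the log2 fold change was 2.33 ± 0.49 (SE, 95% interval 1.20 to 3.46), with an edgeR adjusted p of 0.0905. In WT it was 2.88 ± 0.50 (95% interval 1.73 to 4.04), with an adjusted p of 0.0618, the smallest p of all miRNAs in that comparison. No miRNA passed the edgeR threshold within a genotype (0% in mCre and 0% in WT), while 82 in mCre and 31 in WT had an unadjusted p under 0.05. DESeq2 called 44 of 330 miRNAs in mCre (13.3%) and 12 of 352 in WT (3.41%), miR-146a-5p among them in each, with DESeq2 adjusted p-values of 0.00451 and 0.00167. With both TN replicate 2 libraries left out, which leaves 1 TN library in each genotype, the edgeR log2 fold change was 2.68 in mCre and 2.88 in WT. MP libraries above TN libraries without overlap were common with 2 libraries a side, at 29.6% of tested miRNAs in mCre and 26.2% in WT.

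The MP against TN change of miR-146a-5p in mCre minus that in WT was -0.55 ± 0.66 on the log2 scale (95% interval -2.07 to 0.98, edgeR adjusted p = 0.709), so a difference between genotypes was not detected at this replication. It was -0.21 without both TN replicate 2 libraries. In MP cells the means were 14363 ± 536 CPM in mCre and 14447 ± 3803 CPM in WT (SD, n = 2 each). The fitted log2 difference was -0.0084 ± 0.47, with a 95% interval of -1.09 to 1.07. The sign of that difference changed with RLE size factors, where it was 0.066. In TN cells the means were 2852 ± 1180 CPM in mCre and 1960 ± 236 CPM in WT. The library labelled mCre TN replicate 2 was the highest TN library and the other 3 lay between 1793 and 2126 CPM. The TN log2 difference was 0.54 ± 0.47 with all libraries, -0.047 without mCre TN replicate 2, and 0.16 without both TN replicate 2 libraries.

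miR-146b-5p, which shares the seed of miR-146a-5p, was present at a far lower level that did not follow the subset. It had 236 and 277 CPM in mCre MP, against 246 and 306 CPM in mCre TN libraries. In WT it had 219 and 235 CPM in MP, against 201 and 216 CPM in TN libraries. MP lay below or between TN values in mCre and just above them in WT, and over both genotypes the subsets overlapped. The means were 242 ± 24.6 CPM in MP and 242 ± 46.5 CPM in TN libraries (SD, n = 4 each). The raw counts ran from 446 to 864 in MP and from 383 to 1482 in TN libraries, and its rank by count was 82nd to 110th over all libraries.

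The log2 fold change of miR-146b-5p over both genotypes was 0.011 ± 0.33 (SE), and its 95% interval of -0.73 to 0.75 leaves out the fold change of miR-146a-5p. It turned to -0.095 with RLE size factors and -0.17 with total count scaling, settings that moved the median of all tested miRNAs to -0.15 and -0.23, against -0.042 with TMM. Relative to that median miR-146b-5p stood at 0.053 under TMM, 0.056 under RLE and 0.057 under total count scaling. Within genotypes the change was -0.10 ± 0.46 in mCre and 0.13 ± 0.46 in WT, with edgeR adjusted p-values of 0.916 and 0.932. Without both TN replicate 2 libraries it was -0.084 in mCre, 0.063 in WT and -0.011 over both genotypes. Its level was higher in both mCre MP than in both WT MP libraries, as for 27.2% of tested miRNAs, and higher in both mCre TN than in both WT TN libraries, as for 15.7%. The fitted log2 differences of mCre against WT were 0.17 ± 0.46 in MP and 0.41 ± 0.46 in TN, neither past the threshold. The TN value was 0.28 without both TN replicate 2 libraries, and the MP value was -0.082 with total count scaling.

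Because miR-146a-5p and miR-146b-5p are counted in the same library, their ratio needs no scaling between libraries. There were 62.4 and 50.5 counts of miR-146a-5p for each count of miR-146b-5p in mCre MP, against 8.19 and 12.1 in mCre TN libraries. In WT the ratio was 53.7 and 72.8 in MP, against 8.94 and 9.86 in TN libraries. Every MP library held a higher ratio than every TN library, in each genotype. The mean ratio was 59.8 ± 9.99 in MP and 9.76 ± 1.67 in TN libraries (SD, n = 4 each). The log2 difference of 2.62 had an exact permutation p of 0.0286 (two-sided, 70 assignments made without regard to genotype). It was the smallest p these assignments can give, and the same after adjustment over the 2 ratios tested. Exchange only between the MP and TN libraries of the same genotype and replicate number gave an exact p of 0.125 (16 assignments), the smallest possible there. Exchange within genotypes without regard to replicate number was not tested. Of all counts with the GAGAACU seed, miR-146a-5p thus made up 98.1% to 98.6% in MP libraries and 89.1% to 92.3% in TN libraries.

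**Figure D2:**
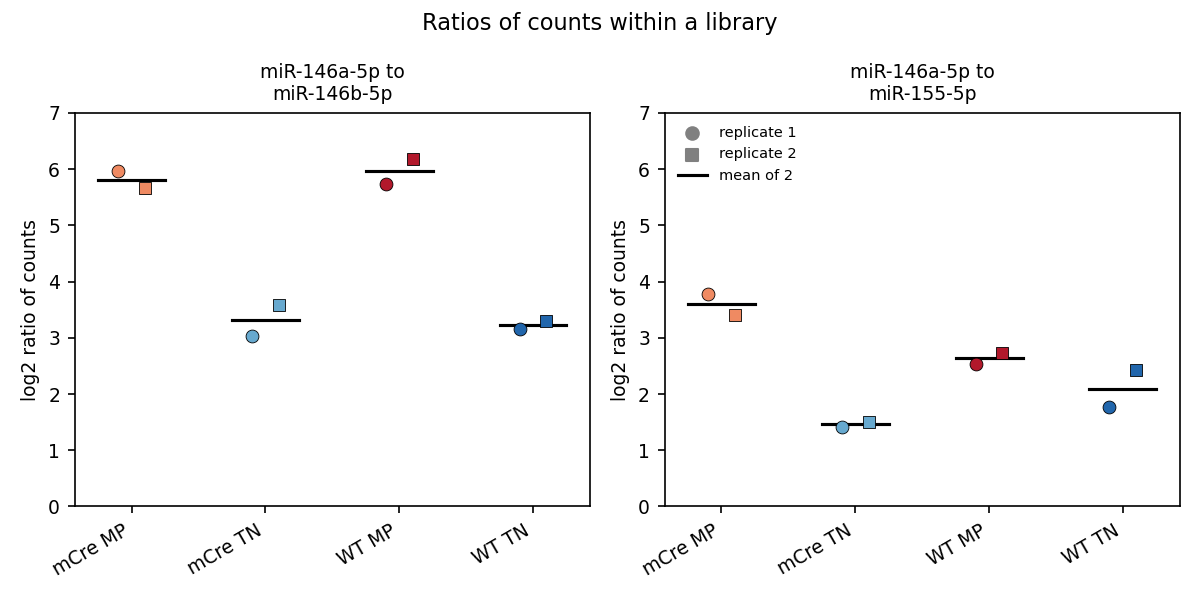
Log2 ratio of counts within each library for miR-146a-5p to miR-146b-5p (left) and miR-146a-5p to miR-155-5p (right); circles are replicate 1, squares replicate 2, and bars the mean of 2 libraries. The left ratio is high in the 4 MP libraries and low in the 4 TN libraries of both genotypes, while the right ratio is highest in mCre MP and lowest in mCre TN libraries.

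miR-155-5p, the repressor of Socs1 and SHIP1, passed the edgeR threshold in no comparison with all 8 libraries. Its MP and TN libraries overlapped in mCre and not in WT, where 26.2% of tested miRNAs had both MP libraries above both TN libraries. It had 1078 and 1312 CPM in mCre MP, against 756 and 1296 CPM in mCre TN libraries. In WT it had 2023 and 2588 CPM in MP, against 524 and 397 CPM in TN libraries. The mCre values overlapped and lay between the WT groups, whose libraries were the highest and the lowest of all 8. The raw counts ran from 2036 to 9497 in MP and from 704 to 4548 in TN libraries, or 0.0951% to 0.242% of MP and 0.0364% to 0.128% of TN counts. The means were 1195 ± 165 CPM in mCre MP, 1026 ± 382 CPM in mCre TN, 2305 ± 400 CPM in WT MP and 460 ± 90.0 CPM in WT TN libraries (SD, n = 2 each). Ordered by mean, WT MP was highest, then mCre MP, mCre TN and WT TN, and of these neighbours the libraries of mCre MP and mCre TN overlapped.

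The log2 fold change of miR-155-5p, MP against TN, was 0.22 ± 0.53 in mCre (95% interval -0.99 to 1.43, edgeR adjusted p = 0.804) and 2.32 ± 0.55 in WT (1.05 to 3.60, adjusted p = 0.181). With DESeq2 the WT value was 2.13 with an adjusted p of 0.0199. Without both TN replicate 2 libraries, the edgeR values were 0.52 in mCre and 2.02 in WT. The mCre value changed sign with total count scaling, to -0.068, which moved the median of all miRNAs there by -0.31. Over both genotypes the log2 fold change was 1.27 ± 0.55 with an edgeR adjusted p of 0.372, and the MP libraries overlapped the TN libraries. This fold change was 1.20 without both TN replicate 2 libraries. The WT change was the eleventh highest of the 382 miRNAs in that comparison, with the fifth smallest p, and did not pass.

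The change of miR-155-5p in mCre minus that in WT was -2.10 ± 0.75 on the log2 scale, with a 95% interval of -3.84 to -0.37. Its unadjusted p was 0.0231 and its edgeR adjusted p was 0.301, so a difference between the genotypes was not established across all miRNAs tested. None of the 382 miRNAs passed for this difference by edgeR (0%), while 54 had an unadjusted p under 0.05 and DESeq2 called 16. Without WT TN replicate 1 the value was -2.44, and without both TN replicate 2 libraries it was -1.50. Both fits leave 1 library in at least 1 group. Over all 14 alternatives the value ran from -2.53 to -1.50.

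Set by genotype, both mCre MP libraries lay below both WT MP libraries for miR-155-5p, with a log2 difference of -0.95 ± 0.53 and an edgeR adjusted p of 0.446. Such a drop without overlap was seen for 37.4% of tested miRNAs, and no miRNA passed the threshold (0%, with 41 at an unadjusted p under 0.05 and 0 by DESeq2). In TN both libraries labelled mCre lay above both labelled WT, as for 15.7% of tested miRNAs, with a log2 difference of 1.16 ± 0.53 and an edgeR adjusted p of 0.957. That difference was 0.52 without both TN replicate 2 libraries. No miRNA passed there either (0%, with 12 at an unadjusted p under 0.05 and 0 by DESeq2). In TN replicate 1 libraries alone, whose miR-29 shares follow their labels, miR-155-5p had 756 CPM in mCre and 524 CPM in WT.

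**Figure D3:**
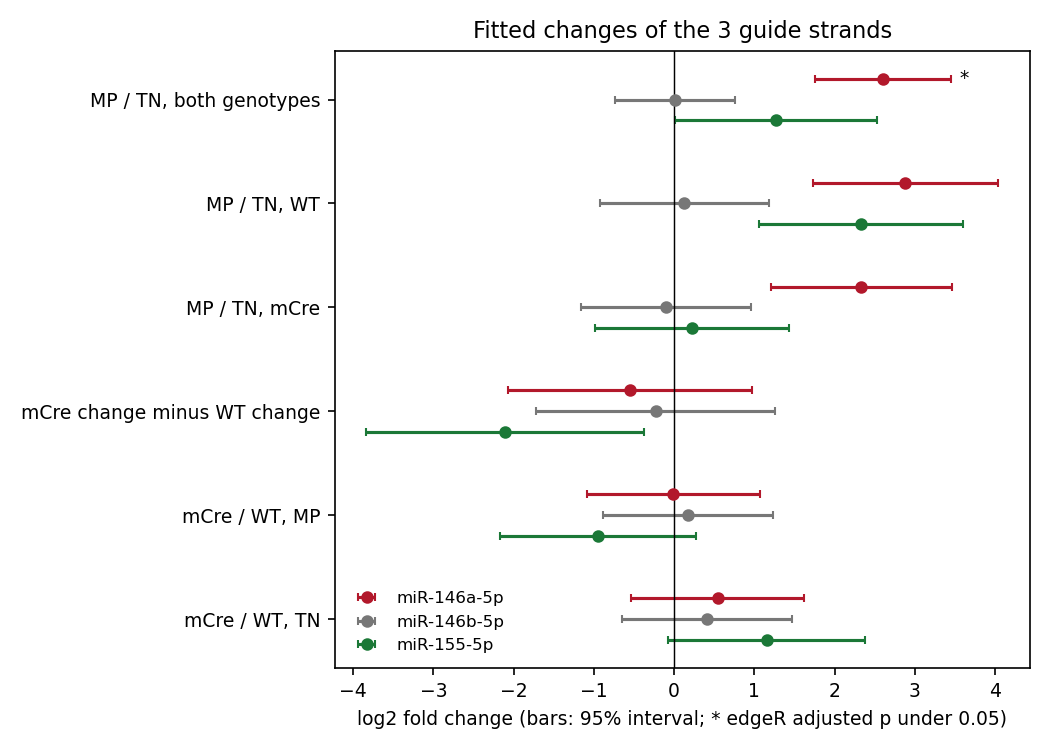
Fitted log2 fold change of each guide strand in the 6 comparisons, with 95% intervals; the star marks an edgeR adjusted p under 0.05. miR-146a-5p lies above 0 in every MP to TN comparison and passes over both genotypes, miR-146b-5p lies near 0 (its sign over both genotypes turns with the scaling), and miR-155-5p is at 0.22 in mCre (-0.068 with total count scaling) and 2.32 in WT.

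**Figure D4:**
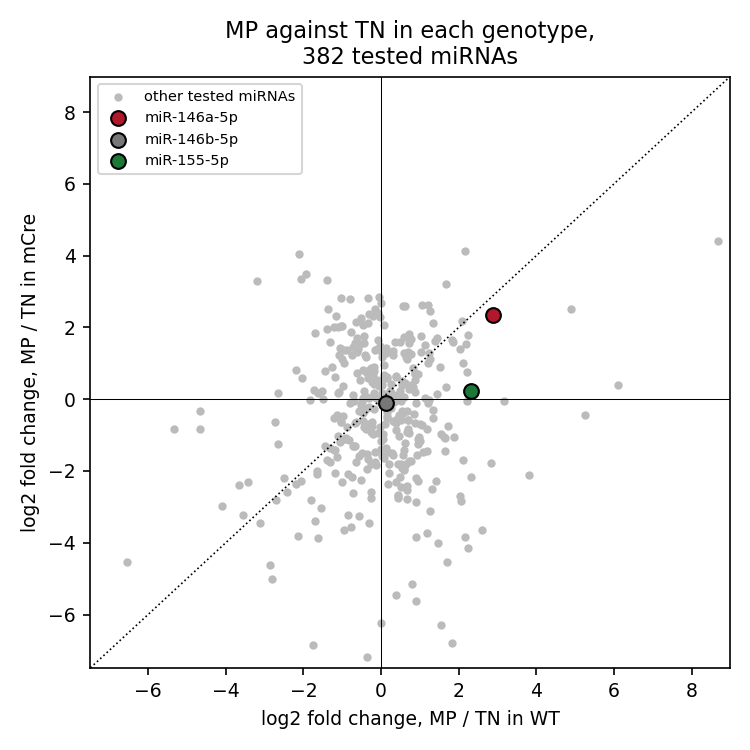
Log2 fold change of MP against TN in WT (horizontal) and in mCre (vertical) for the 382 tested miRNAs, with equal changes on the dotted line. miR-146a-5p lies near the line at 2.33 in mCre and 2.88 in WT, miR-146b-5p near the origin, and miR-155-5p below the line at 0.22 in mCre and 2.32 in WT, among other miRNAs that lie further from the line.

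The ratio of miR-146a-5p to miR-155-5p, the products of the NF-kB driven genes, was also read within each library. It was 13.7 and 10.7 in mCre MP, against 2.67 and 2.84 in mCre TN libraries, and 5.81 and 6.62 in WT MP, against 3.42 and 5.36 in WT TN libraries. All MP libraries were above all TN libraries, and the gap between the subsets was wide in mCre and narrow in WT. The mean ratio was 9.19 ± 3.66 in MP and 3.57 ± 1.23 in TN libraries (SD, n = 4 each). The log2 difference was 1.33, with an exact permutation p of 0.0286 (two-sided, 70 assignments), and 0.0286 after adjustment over the 2 ratios. These assignments also disregard genotype, although the ratio differed between mCre MP and WT MP libraries. Leaving out any 1 of 6 of the 8 libraries gave an exact p of 0.0571, and leaving out both TN replicate 2 libraries gave a log2 difference of 1.52 with a p of 0.0667, the smallest that 4 against 2 libraries allows.

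The opposite arms of the hairpins printed above were rare. miR-146a-3p had 0 counts in all 8 libraries, against 203379 counts of miR-146a-5p, which allows a share of up to 0.00148% of the hairpin's counts. miR-146b-3p had 4 counts in mCre TN replicate 1 and 2 counts in WT TN replicate 1 and 0 in the other 6, together 0.0947% of 6334. miR-155-3p had 168 of 33502 counts, or 0.501%. Per library it had 19 and 35 counts in mCre MP, 40 and 1 in mCre TN, 26 and 32 in WT MP, and 9 and 6 in WT TN. Its share of the hairpin's counts was 0.925% and 1.03% in mCre MP, 0.872% and 0.0267% in mCre TN, 0.346% and 0.336% in WT MP, and 0.458% and 0.845% in WT TN libraries. The Wilson 95% intervals of both mCre MP libraries, from 0.593% and 0.741% upward, lay above those of both WT MP libraries, which ended at 0.507% and 0.474%. These intervals and the limits for a count of 0 cover counting error only. How many other hairpins separate in this way was not tested. miR-155-3p was tested, and its log2 fold change of MP against TN over both genotypes was 1.58 ± 0.78 with an edgeR adjusted p of 0.461. Its log2 difference of mCre against WT in MP was 0.59 ± 1.08, with an edgeR adjusted p of 0.813.

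Other miRNAs that are induced by NF-kB or act on its pathway were read from a list of 14, of which 11 passed the filter on low counts. Over both genotypes, 5 of these 11 had a positive and 6 a negative log2 fold change of MP against TN. Beside 9 of all 382 miRNAs (2.36%), 1 of the 11 passed the threshold. That was miR-21a-5p, a widely induced miRNA that represses Pdcd4, at 60135 ± 13993 CPM in MP and 16685 ± 4987 CPM in TN libraries (SD, n = 4 each). Its log2 fold change was 1.87 ± 0.36, with an edgeR adjusted p of 0.0392. That call was lost with total count scaling, with the adjusted p at 0.102, with the replicate number as a block (0.0733), and in 7 of the 8 fits that each left out 1 library. DESeq2 called 1 of the 11 higher and 2 lower in MP, beside 28 of the 352 miRNAs given an adjusted p (7.95%). With no filter on low counts, edgeR called 1 of the 14 listed higher and 1 lower, beside 19 of 877. In the main fit, the median log2 fold change of the 11 was -1.10, beside -0.042 over all 382. Without both TN replicate 2 libraries, 4 were positive and 7 negative.

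**Figure D5:**
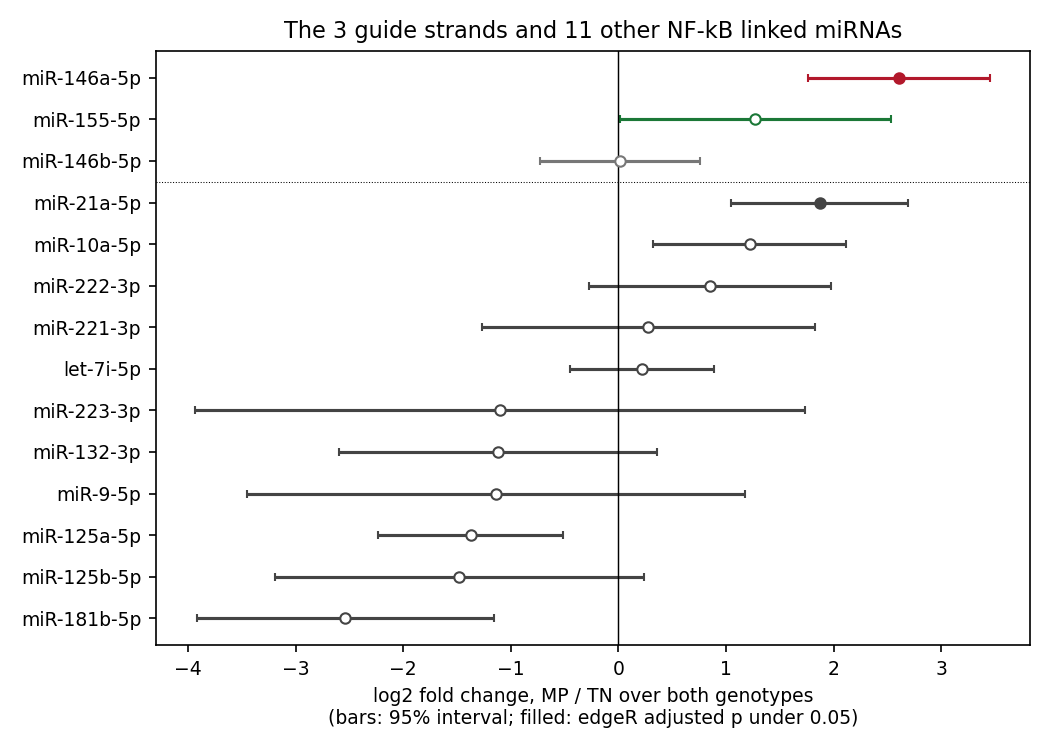
Log2 fold change of MP against TN over both genotypes, with 95% intervals, for the 3 guide strands (above the dotted line) and the 11 other listed miRNAs that were tested; filled points have an edgeR adjusted p under 0.05. miR-146a-5p at 2.61 and miR-21a-5p at 1.87 are filled, and the other listed miRNAs lie on both sides of 0.

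Within genotypes none of the 11 passed in the main edgeR fit of all 8 libraries. DESeq2 called 2 as lower in mCre MP and 1 as higher in WT MP. Beside this, DESeq2 called 13.3% of all miRNAs given an adjusted p in mCre and 3.41% in WT, in either direction. Some of the list passed by edgeR in fits that left 1 TN library in a genotype, where the number called over all miRNAs rose as well. In mCre, 4 were positive and 7 negative, with a median of -1.18 beside -0.18 over all tested. The smallest p-values there were those of miR-181b-5p, which represses the importin that carries NF-kB into the nucleus of endothelial cells, at -3.38 (adjusted p = 0.105), miR-21a-5p at 1.55 (0.183) and miR-10a-5p at 1.67 (0.192). miR-181b-5p averaged 160 ± 79.4 CPM in mCre MP and 1672 ± 1041 CPM in mCre TN libraries (SD, n = 2 each), the TN libraries standing at 936 and 2408 CPM. Without 1 library its log2 fold change ran from -4.06 to -2.65, and it was called by DESeq2 (adjusted p = 0.000185). With no filter on low counts, edgeR called miR-181b-5p too, at -3.54 (adjusted p = 0.004). That fit called 24 of 877 miRNAs in mCre. In WT, 5 were positive and 6 negative, with a median of -0.11 beside 0.047 over all tested. The smallest p-values in WT were those of miR-21a-5p at 2.19 (adjusted p = 0.175), miR-221-3p, which in human cells represses the cell cycle inhibitor p27, at 1.64 (0.447), and miR-125a-5p, which in human cells represses the NF-kB inhibitor TNFAIP3, at -1.45 (0.451). The value of miR-221-3p was 2.45 without WT TN replicate 1 and 1.05 without WT TN replicate 2.

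The miRNAs whose log2 CPM was most like that of each member over the 8 libraries were ranked by Pearson correlation among 381 others. These values describe 8 libraries that fall into the MP and TN subsets, so a shared difference between subsets alone gives a high value. For miR-146a-5p they were miR-30a-3p (0.97), miR-598-3p (0.97) and miR-1843a-5p (0.91). miR-30a-3p averaged 1248 ± 57.0 CPM in MP and 285 ± 63.1 CPM in TN libraries, and miR-598-3p 12.9 ± 4.60 CPM in MP and 0.211 ± 0.252 CPM in TN libraries (SD, n = 4 each). For miR-155-5p they were miR-374b-5p (0.99), miR-1949 (0.92) and miR-21a-3p (0.86), the opposite arm of miR-21a-5p. For miR-146b-5p they were miR-298-5p (0.85), miR-22-3p (0.79) and miR-1930-5p (0.79).

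Markers of other cell types that a sort from spleen could hold were summed per library in unscaled CPM. The 2 myeloid markers, both arms of miR-223, summed to 1.40 to 13.7 in MP and 6.94 to 10.3 in TN libraries, near 0 beside miR-146a-5p. By group their sum was 1.40 and 2.94 in mCre MP, 7.26 and 10.3 in mCre TN, 13.7 and 10.7 in WT MP, and 6.94 and 7.23 in WT TN libraries, so that it moved with miR-155-5p in being higher in WT MP than in mCre MP libraries. The 4 miRNAs listed for lymphocytes did so as well, at 40197 and 63579 in mCre MP, 108314 and 164992 in mCre TN, 101671 and 105273 in WT MP, and 75712 and 44313 in WT TN libraries. In WT, the myeloid and lymphocyte sums were also higher in both MP than in both TN libraries, as miR-155-5p was. In mCre, both sums were lower in both MP than in both TN libraries, while miR-155-5p overlapped there. The 5 erythroid markers summed to 149 to 273 in MP and 81.6 to 184 in TN libraries, the 3 endothelial markers to 22.0 to 65.5 in MP and 14.5 to 41.1 in TN, and the 7 epithelial markers to 1985 to 4266 in MP and 1297 to 3922 in TN. Over both genotypes each of these ranges overlapped between the subsets. Within mCre, however, both MP libraries lay above both TN libraries for the erythroid sum, at 273 and 180 in MP against 81.6 and 148 in TN, and for the epithelial sum, at 1985 and 2510 in MP against 1936 and 1297 in TN, as they did for miR-146a-5p. The part of these markers in the results on miR-146a-5p and miR-155-5p was not tested.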

How the data were processed

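Small RNA was sequenced from 8 libraries of sorted spleen CD8+ T cells, 2 per group, with inserts of 18 to 35 bp per the labels' protocols. The authors deposited 1 table of expected counts per mature miRNA, mostly whole, and their values look as if reads matching more than 1 row had been divided. Per the submitters' processing notes the build was mm10; for the aligner, counter and annotation, no name is given in these sources. Groups came from the sample titles. Rows of one mature name were summed and rounded. Names with low counts were removed with filterByExpr (minimum count 10, minimum total 15), and libraries were scaled by TMM. edgeR 4.0.16 in R 4.3.3 fitted quasi-likelihood models with robust estimation: 1 fit of the 4 groups (4 residual degrees of freedom) for 5 comparisons, and 1 additive fit of subset and genotype (5) for MP against TN over both genotypes. Standard errors were derived from the fold change and its F statistic. Ratios of counts, with 0.5 added, were compared by exact permutation of subset over all libraries, without regard to genotype. Shares carry Wilson 95% intervals. Log2 CPM used a prior count of 2. No pair of libraries of a group agreed within sampling noise (chi-square per degree of freedom 160 to 942). The fit for MP against TN over both genotypes was tested on data simulated with a subset effect and no genotype effect. The other comparisons were not tested in this way.

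Alternatives were RLE or total count scaling, no filter, DESeq2 1.42.0, a replicate block, another pseudocount, and leaving out libraries. The text names the 3 members, their opposite arms, the listed NF-kB linked miRNAs that passed or else the 3 with the smallest p in each MP against TN comparison, and the 3 miRNAs most correlated with each member. Members, lists and tests were chosen with earlier results of these data known.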

Additional observations from a re-analysis of the deposited data

How the results depend on the processing

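Each of the 3 miRNAs was refitted under 14 alternatives per comparison. The call of miR-146a-5p over both genotypes held in 9 and missed in 5 that left out 1 library (log2 fold change 2.38 to 2.69 without 1 library). Within genotypes, in fits of all 8 libraries, its call was gained in WT with no filter (2.89) and DESeq2 (2.67), and in mCre with DESeq2 (2.31). Without both TN replicate 2 libraries, which leaves 1 TN library in each genotype, its change was 2.88 in WT and 2.68 in mCre. Without 1 library it ran from 2.50 to 3.16 in WT and from 1.90 to 2.68 in mCre. miR-155-5p in WT passed with DESeq2 (2.13), and its change in mCre was -0.068 with total count scaling and -0.19 to 0.52 without 1 library. Its difference between genotypes ran from -2.53 to -1.62 without 1 library. Values near 0 changed sign. For miR-146b-5p over both genotypes these were -0.095 (RLE), -0.17 (total count), -0.061 (no filter), -0.094 (DESeq2), -0.011 (without both TN replicate 2 libraries) and -0.13 to -0.019 without 1 library. In WT it was -0.070 with RLE and with DESeq2. Without 1 library its change ran from -0.070 to 0.21 in WT and from -0.32 to 0.056 in mCre, and its difference between genotypes from -0.47 to 0.13. In MP, mCre against WT was -0.082 with total count scaling. For miR-146a-5p, mCre against WT in MP was 0.066 with RLE and with DESeq2 and -0.35 to 0.27 without 1 library, and in TN -0.047 to 0.91.

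The number of miRNAs called by edgeR depended on the libraries. Fits without 1 library, or without both TN replicate 2 libraries, leave 1 library in at least 1 group. Such a group adds nothing to the spread in the fit of the 4 groups, and the filter left 433 miRNAs without both. Higher counts from these fits are therefore not read as stronger support. In WT it was 0, but 6 with no filter, 12 with DESeq2, 14 without both TN replicate 2 libraries and 0 to 6 without 1 library. In mCre it was 0, but 24, 44, 30 and 0 to 56 under these settings in the same order. For the difference between genotypes it was 10 with no filter, 16 with DESeq2 and 0 to 68 without 1 library, the 68 without WT TN replicate 1. For mCre against WT it was 1 in TN with no filter and 63 in MP without both TN replicate 2 libraries. Over both genotypes it was 9, but 19 with no filter, 28 with DESeq2, 49 without both TN replicate 2 libraries and 0 to 41 without 1 library, the 41 without WT TN replicate 2. The cause was not tested.

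Deviations of same-numbered libraries correlated from -0.32 to 0.41 between groups. With 2 libraries a group, these values cannot show whether the replicate numbers pair the samples. With the numbers as a replicate block, 2 miRNAs were called over both genotypes, and miR-146a-5p, mCre against WT in MP, was 0.034. In that block fit miR-146a-5p over both genotypes stood at 2.63 with an adjusted p of 0.0235, and the call of miR-21a-5p was lost (1.90, adjusted p 0.0733). Exchanging the numbers of the WT TN libraries, chosen after seeing the data, gave 0 calls for mCre against WT in TN. Permuted within blocks of the same genotype and replicate number, the ratio differences of 2.62 (miR-146a-5p to miR-146b-5p) and 1.33 (miR-146a-5p to miR-155-5p) had an exact p of 0.125, the smallest possible there. Without both TN replicate 2 libraries they were 2.79 and 1.52 with p = 0.0667 by the exact test, also the smallest possible, and the ratio to miR-155-5p ran from 1.11 to 1.55 without 1 library.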
